A study of Bos taurus with 8 samples.

Results

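Aminoacyl-tRNA synthetases are the enzymes that join each amino acid to its own tRNA, the step that makes the genetic code readable on the ribosome. The 36 synthetase genes examined here were chosen by gene symbol, and all 36 were among the 21258 features measured. Of these, 20 encode enzymes of the cytosol and 16, marked by the suffix 2, encode enzymes imported into mitochondria. RNA was sequenced from pools of 8 Holstein cattle embryos at the eight-cell stage. Cloned embryos made by somatic cell nuclear transfer that overexpressed the histone demethylase KDM4E (KDM4E-SCNT) gave 2 libraries, embryos from in vitro fertilisation (IVF) gave 3, and cloned embryos without KDM4E overexpression (SCNT), which the series design names as the control, gave 3. The labels give neither the way KDM4E was overexpressed, the donor cells and the hour of collection, nor any sign that replicate pools came from separate batches of embryos. A p-value here thus measures no more than the spread among pools, part of which may be technical.

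Cytosolic and mitochondrial synthetases are in general products of separate nuclear genes. In mammals KARS and GARS serve both compartments, EPRS charges glutamate and proline tRNAs with a single protein, and phenylalanine needs a pair of cytosolic subunits, FARSA and FARSB. Several cytosolic enzymes are held with the scaffold proteins AIMP1, AIMP2 and EEF1E1 in the multisynthetase complex. Mitochondria lack a glutamine enzyme of their own and make charged glutamine tRNA in a detour through glutamate. In cattle embryos the main onset of transcription from the embryonic genome falls around the stage collected here, so these pools can hold RNA stored in the oocyte beside RNA made by the embryo.

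Each library listed between 10975 and 13050 features at 1 or more FPKM, a fragment count scaled for transcript length and library size. The 10 oocyte and early embryo markers, such as GDF9 and ZP3, were at 1 FPKM or more in all 8 libraries. Their summed level was 5371 to 7322 FPKM in KDM4E-SCNT pools, 8565 to 9027 in IVF pools and 1556 to 2254 in SCNT pools. Summed over 12 fibroblast markers the level was 84.6 to 345.5 FPKM in KDM4E-SCNT, 24.0 to 48.0 in IVF and 100.3 to 168.8 in SCNT pools, with THY1, COL3A1 or COL6A1 listed at 0 in 6 of the 8 libraries. The 9 cumulus and granulosa markers in the files, of 11 listed, summed to 46.1 to 99.7, 102.1 to 163.5 and 16.9 to 25.5 FPKM in the same groups, with AMH, FSHR or PTX3 listed at 0 in every library. The 8 sperm markers in the files, of 10 listed, summed to 48.0 to 56.1, 70.2 to 92.7 and 25.9 to 41.8 FPKM, with TNP2 at 0 in 7 of the 8 libraries. LDHC carried most of the sperm sum in IVF pools, at 59.6 to 80.9 FPKM. CRISP2 went the other way, with 17.5 to 34.3 FPKM in SCNT and 1.15 to 2.73 in IVF pools. HAS2 and STAR carried most of the cumulus and granulosa sum in IVF pools, while TNFAIP6 was lower there than in SCNT. Of the fibroblast markers DCN, LGALS1, S100A4 and SPARC were lower in IVF than SCNT pools and FN1 higher. In KDM4E-SCNT pools S100A4 and VIM were higher than in SCNT, and LUM, S100A4, SPARC and VIM higher than in IVF. Of the 9 fibroblast markers tested none was lower in KDM4E-SCNT in either comparison. The differences of LGALS1 and TNFAIP6 from SCNT in IVF, and of LUM and VIM from IVF in KDM4E-SCNT, did not pass in several of the alternative settings listed below. The marker sums differ between the groups in which synthetases differed, and their part in the results below was not tested. A locus on chromosome 15 (LOC524768) that the files describe as lysine demethylase 4C-like, and of which it is uncertain whether it is KDM4E, had 101.9 and 206.4 FPKM in KDM4E-SCNT, 108.9, 88.3 and 109.1 in IVF and 25.4, 30.0 and 33.9 in SCNT pools.

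The synthetases spanned a wide range of levels. Averaged over all 8 libraries, RARS (arginine) was the highest cytosolic enzyme at 113.8 FPKM, followed by KARS (lysine) at 69.9 and FARSB at 55.3. RARS2 led the mitochondrial enzymes at 62.2 FPKM, followed by WARS2 (tryptophan) at 34.7 and HARS2 (histidine) at 6.19. All 20 cytosolic genes passed the filter for testing, 1 FPKM or more in at least 2 libraries, and 9 of the 16 mitochondrial genes did. The other 7, AARS2, EARS2, LARS2, MARS2, PARS2, SARS2 and VARS2, reached at most 1.62 FPKM in any library and were listed at 0 in 13 of 56 values. VARS2 is uncertain, since a feature close to it on chromosome 23 is described as the mitochondrial valine enzyme. That feature carries the symbol GTF2H4 and had 1.78 to 7.85 FPKM. All members together made up 0.0645% to 0.102% of the FPKM of a library.

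**Figure D1:**
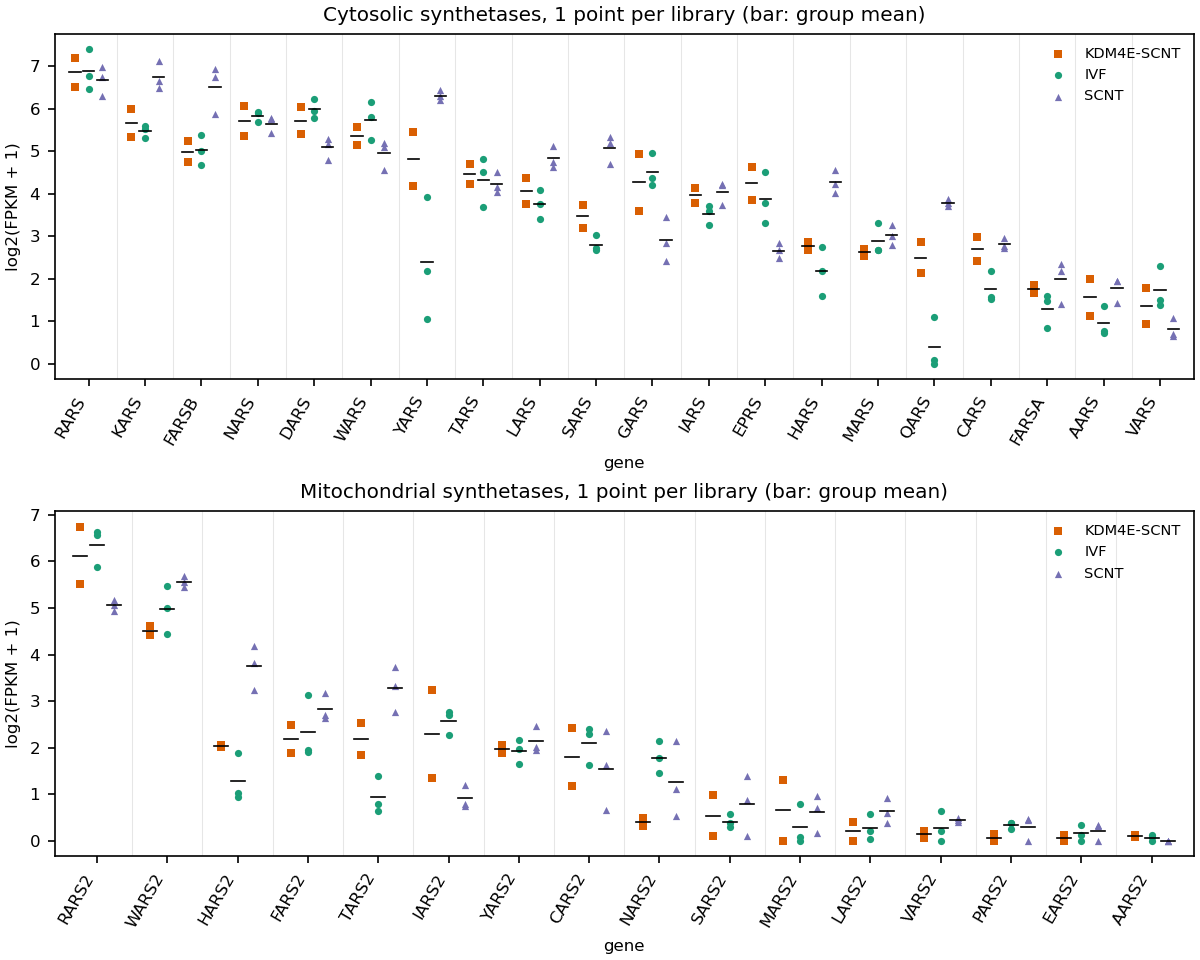
Level of each synthetase as log2(FPKM + 1), with 1 point per library, a bar at the group mean, and KDM4E-SCNT, IVF and SCNT pools side by side for each gene; cytosolic genes are in the upper panel and mitochondrial genes in the lower one. QARS, YARS, SARS and HARS stand highest in SCNT pools and GARS and EPRS lowest there, while the 7 mitochondrial genes at the right lie near 0 in all groups.

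The question of the design was how IVF embryos and KDM4E-SCNT embryos differ from SCNT embryos. Between IVF and SCNT pools, 16 of the 29 synthetases tested were called at an adjusted p under 0.05. Of these 6 were higher in IVF (DARS, EPRS, GARS, WARS, IARS2 and RARS2) and 10 were lower in IVF (YARS, QARS, SARS, HARS, FARSB, KARS, LARS, CARS, HARS2 and TARS2). The changes were of unlike size, from 15.2-fold lower for YARS to 3.18-fold higher for IARS2 as fitted on log2(FPKM + 1). For genes of low level this scale makes a change look smaller than it is. Over all 14839 features tested 58.5% were called, 34.9% higher and 23.6% lower. The members' share of calls, 55.2%, was near that background, with 20.7% higher and 34.5% lower. The median log2 difference was -0.51 over the 29 members and 0.39 over all features. IVF and SCNT libraries did not overlap for 19 of the 29 members, and over all features they did not overlap for 64.4%. With median-ratio scaling 28% of all features were called higher and 29.2% lower, and of the members 3 and 14.

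Between KDM4E-SCNT and SCNT pools 9 of 29 synthetases were called. EPRS and GARS were higher in KDM4E-SCNT, and FARSB, HARS, KARS, QARS, SARS, HARS2 and WARS2 were lower. This is 31.0% of the members, 6.90% higher and 24.1% lower, beside 32.6% of all features, 21.6% higher and 11% lower. The median log2 difference was -0.22 over the members and 0.33 over all features. KDM4E-SCNT and SCNT libraries did not overlap for 18 members, and for 59.5% of all features. With median-ratio scaling 14.2% of all features were called higher and 18.6% lower, and of the members 1 and 10. Each of these 9 calls ended in at least 1 of the 15 alternative settings, and without KDM4E-SCNT replicate 2 all but that of KARS ended. The adjusted p was then 0.0639 for HARS2, 0.0655 for SARS, 0.0665 for HARS, 0.1004 for FARSB, 0.107 for WARS2, 0.140 for EPRS, 0.248 for QARS and 0.385 for GARS. Over all features the same omission left 1103 higher and 472 lower calls, against 3208 and 1636 with both libraries.

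Between KDM4E-SCNT and IVF pools QARS and YARS were called, both higher in KDM4E-SCNT, and 27 of 29 members were not called. That is 6.90% of members beside 6.52% of all features, of which 5.9% were higher and 0.62% lower. The groups did not overlap for 9 members and for 33.9% of all features. The comparisons with SCNT share the 3 SCNT libraries, so their values for a gene are given side by side and not as separate evidence. In these bulk pools fewer cells of a type and less RNA per cell cannot be told apart.

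**Figure D2:**
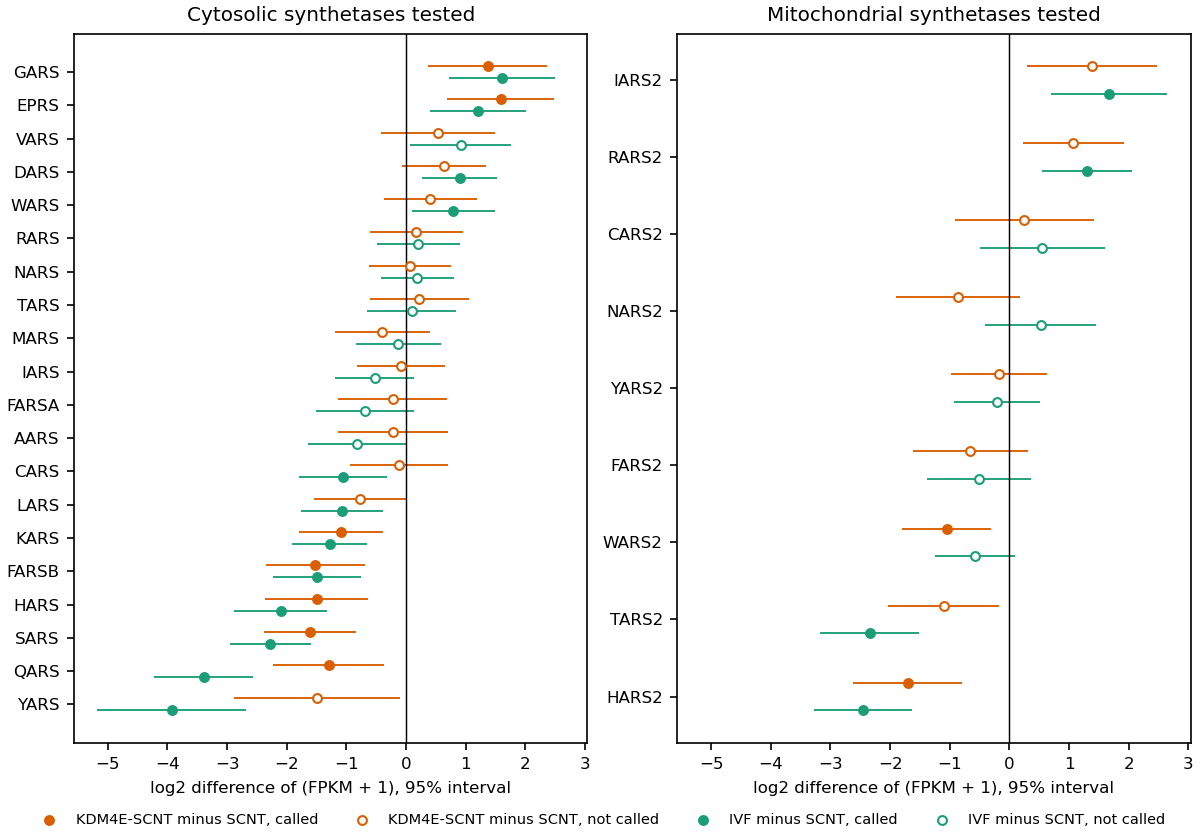
Log2 difference of (FPKM + 1) with its 95% interval for each synthetase tested, for KDM4E-SCNT minus SCNT and IVF minus SCNT; filled points were called at an adjusted p under 0.05 over all features and open points were not. Cytosolic genes run from GARS, 1.37 and 1.61 in the pair of comparisons, down to YARS, -1.49 and -3.93, and mitochondrial genes from IARS2 to HARS2.

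The enzymes of the multisynthetase complex were not all called in the same direction as deposited. Of its 8 enzymes, EPRS and DARS were higher and KARS, LARS and QARS lower in IVF than in SCNT pools, and IARS, MARS and RARS were not called. In KDM4E-SCNT against SCNT, EPRS was higher, KARS and QARS were lower and 5 were not called. That is 62.5% called in IVF minus SCNT and 37.5% in KDM4E-SCNT minus SCNT, beside 58.5% and 32.6% of all features. The median log2 difference of the 8 was -0.33 in IVF minus SCNT and -0.24 in KDM4E-SCNT minus SCNT, beside 0.39 and 0.33 over all features. With median-ratio scaling 0 were called higher and 4 lower (IARS, KARS, LARS and QARS) in IVF minus SCNT. In KDM4E-SCNT minus SCNT that scaling gave 1 higher (EPRS) and 3 lower. All features then had 28% higher and 29.2% lower in IVF minus SCNT, and 14.2% and 18.6% in KDM4E-SCNT minus SCNT.

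QARS, the glutamine enzyme (chromosome 22, 51484253 to 51491566, build UMD3.1 as for all positions here), had 6.22 and 3.37 FPKM in KDM4E-SCNT pools, 0, 0.06 and 1.15 in IVF pools and 12.7, 13.6 and 12.2 in SCNT pools. The 3 groups formed separate levels with no overlap, SCNT on top and IVF near 0. The log2 difference was -3.39 ± 0.38 (SE, adjusted p = 1.60e-05) in IVF minus SCNT, -1.30 ± 0.43 (adjusted p = 0.0351) in KDM4E-SCNT minus SCNT and 2.09 ± 0.43 (adjusted p = 0.00991) in KDM4E-SCNT minus IVF. These sizes depend on the pseudocount because IVF values are near 0, and with 0.1 in place of 1 they were -5.57, -1.46 (adjusted p = 0.237) and 4.11. The call of QARS against IVF ended without KDM4E-SCNT replicate 1 (adjusted p = 0.151), and its call against SCNT also ended without SCNT replicate 1, 2 or 3 (0.0829, 0.0745 and 0.0761).

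KARS had 39.5 and 62.4 FPKM in KDM4E-SCNT pools, 45.0, 38.9 and 46.9 in IVF pools and 138.9, 88.4 and 99.3 in SCNT pools. All 3 SCNT libraries lay above all others, and the KDM4E-SCNT and IVF libraries overlapped. This gave a log2 difference of -1.28 ± 0.29 (adjusted p = 0.00237) in IVF minus SCNT and -1.09 ± 0.33 (adjusted p = 0.0229) in KDM4E-SCNT minus SCNT. The second call ended without KDM4E-SCNT replicate 1 (0.139), SCNT replicate 1 (0.0861) or SCNT replicate 3 (0.0529). LARS, the leucine enzyme, ranged from 12.5 to 19.8 FPKM in KDM4E-SCNT, 9.64 to 16.1 in IVF and 23.7 to 33.8 in SCNT pools. Its log2 difference was -1.07 ± 0.32 (adjusted p = 0.0118) in IVF minus SCNT, a call that ended without SCNT replicate 3 (0.0571), and -0.77 ± 0.36 (adjusted p = 0.114) in KDM4E-SCNT minus SCNT, where it passed with median-ratio scaling (0.0203).

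EPRS went the other way, with 13.5 and 23.9 FPKM in KDM4E-SCNT pools, 8.84, 21.8 and 12.8 in IVF pools and 5.36, 6.10 and 4.61 in SCNT pools. SCNT libraries were below every other library, and the rest overlapped. On the log2 scale the difference was 1.59 ± 0.42 (adjusted p = 0.0127) in KDM4E-SCNT minus SCNT and 1.205 ± 0.37 (adjusted p = 0.0143) in IVF minus SCNT. The IVF call ended without SCNT replicate 3 (0.0516), without IVF replicate 2 (0.0573) and under both other scalings (0.0753 with median-ratio scaling, 0.0504 with quantile normalization). DARS, which charges aspartate tRNA, had 41.6 and 64.4 FPKM in KDM4E-SCNT, 61.0, 53.8 and 73.7 in IVF and 35.0, 26.9 and 38.2 in SCNT pools. All IVF and KDM4E-SCNT libraries were above the SCNT libraries, and the log2 difference was 0.89 ± 0.29 (adjusted p = 0.0187) in IVF minus SCNT and 0.63 ± 0.33 (adjusted p = 0.150) in KDM4E-SCNT minus SCNT. The IVF call of DARS ended without IVF replicate 3 (0.0774), without SCNT replicate 2 (0.0662) and with median-ratio scaling (0.179).

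RARS, the most abundant member, had 90.5 and 145.1 FPKM in KDM4E-SCNT, 88.0, 167.3 and 108.8 in IVF and 126.0, 78.1 and 106.8 in SCNT pools. The groups overlapped, and the log2 difference was 0.20 in IVF minus SCNT (95% interval -0.50 to 0.90) and 0.17 in KDM4E-SCNT minus SCNT (-0.61 to 0.95). IARS (isoleucine) and MARS (methionine) lay between 8.66 and 17.7 FPKM and between 4.81 and 8.87 FPKM over all libraries. Neither was called, though IARS passed in IVF minus SCNT with median-ratio scaling (-0.94, adjusted p = 0.0206).

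Of the 3 scaffold genes, AIMP1 and AIMP2 were lower in both KDM4E-SCNT and IVF than in SCNT pools. Of all features 11% were called lower in KDM4E-SCNT and 23.6% in IVF. AIMP1 had 112.8 and 48.9 FPKM in KDM4E-SCNT pools, 6.14, 12.8 and 7.30 in IVF pools and 485.6, 315.3 and 422.7 in SCNT pools. As for QARS, the 3 groups did not overlap and KDM4E-SCNT lay between the others. The log2 difference of AIMP1 was -5.43 ± 0.37 (adjusted p = 5.63e-07) in IVF minus SCNT, -2.42 ± 0.41 (adjusted p = 0.00166) in KDM4E-SCNT minus SCNT and 3.01 ± 0.41 (adjusted p = 0.00101) in KDM4E-SCNT minus IVF. AIMP2 had 14.8 and 18.2 FPKM in KDM4E-SCNT, 17.0, 8.86 and 21.5 in IVF and 114.7, 35.5 and 54.2 in SCNT pools. Its SCNT libraries were above all others, with log2 differences of -1.95 ± 0.43 (adjusted p = 0.00184) in IVF and -1.82 ± 0.48 (adjusted p = 0.0128) in KDM4E-SCNT against SCNT; the second call ended without KDM4E-SCNT replicate 1 (0.0618) or 2 (0.0662). EEF1E1 averaged 74.0 ± 2.9 FPKM in KDM4E-SCNT (n = 2), 75.2 ± 9.8 in IVF (n = 3) and 106.5 ± 6.8 in SCNT pools (SD, n = 3). It was not called in either comparison with SCNT (adjusted p = 0.170 and 0.0999). Its SCNT libraries were still above all others, and with median-ratio scaling it was called lower in both comparisons.

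**Figure D3:**
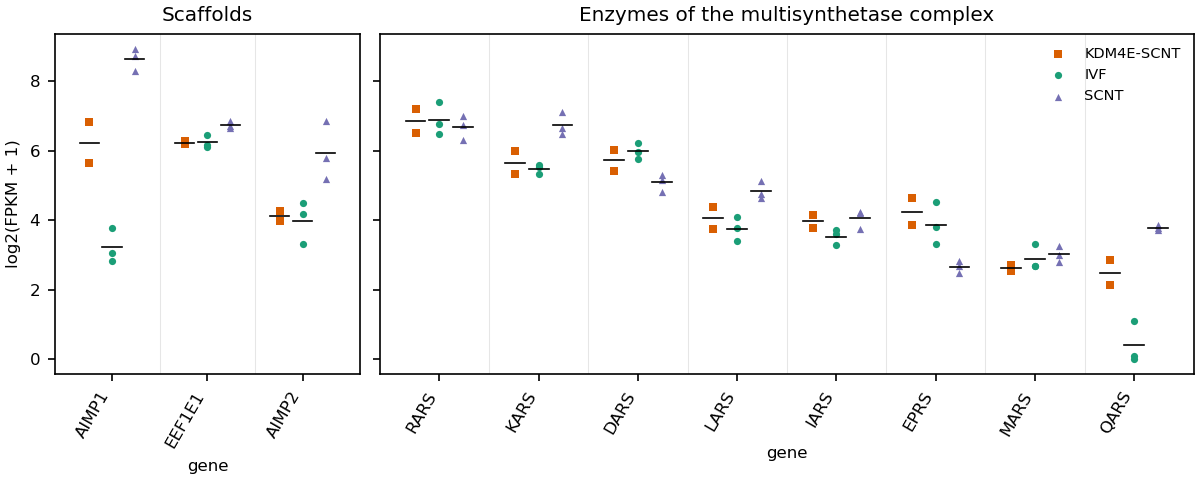
Level as log2(FPKM + 1) of the 3 scaffold genes and the 8 enzymes of the multisynthetase complex, with 1 point per library, a bar at the group mean and KDM4E-SCNT, IVF and SCNT side by side. AIMP1 and QARS form 3 separate levels with KDM4E-SCNT in the middle, while RARS overlaps in all groups.

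Among the 12 cytosolic enzymes outside the complex, GARS and WARS were higher and CARS, FARSB, HARS, SARS and YARS lower in IVF than in SCNT pools. In KDM4E-SCNT against SCNT, GARS was higher, FARSB, HARS and SARS were lower and 8 were not called. The called share was 58.3% in IVF minus SCNT and 33.3% in KDM4E-SCNT minus SCNT, near the 58.5% and 32.6% of all features. The median log2 difference was -0.76 in IVF minus SCNT and -0.17 in KDM4E-SCNT minus SCNT, beside 0.39 and 0.33 over all features.

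YARS, the tyrosine enzyme (chromosome 2, 121679989 to 121712437), had 43.1 and 17.0 FPKM in KDM4E-SCNT pools, 3.50, 1.08 and 14.2 in IVF pools and 72.5, 77.4 and 85.8 in SCNT pools. SCNT libraries were close together and on top, and KDM4E-SCNT replicate 2 lay just above the highest IVF library. The log2 difference was -3.93 ± 0.58 (adjusted p = 0.000106) in IVF minus SCNT, and -1.49 ± 0.64 (adjusted p = 0.0907) in KDM4E-SCNT minus SCNT, where it passed in 4 alternatives (0.0195 to 0.0387). In KDM4E-SCNT minus IVF it was 2.43 ± 0.64 (adjusted p = 0.0408), a call that ended in 9 of 15 alternatives, among them the omission of KDM4E-SCNT replicate 1 (0.455), IVF replicate 1 (0.120), IVF replicate 2 (0.0859) or SCNT replicate 1, 2 or 3 (0.0604, 0.0649 and 0.0674).

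SARS, the serine enzyme that also charges the selenocysteine tRNA, had 12.2 and 8.19 FPKM in KDM4E-SCNT, 5.35, 5.59 and 7.10 in IVF and 35.7, 39.3 and 24.9 in SCNT pools. The order IVF, KDM4E-SCNT, SCNT held without overlap. This gave a log2 difference of -2.27 ± 0.32 (adjusted p = 7.18e-05) in IVF minus SCNT and -1.61 ± 0.35 (adjusted p = 0.00558) in KDM4E-SCNT minus SCNT. FARSB, a subunit of the phenylalanine enzyme, had 36.6 and 25.8 FPKM in KDM4E-SCNT, 24.4, 31.0 and 40.9 in IVF and 120.8, 57.2 and 105.8 in SCNT pools. KDM4E-SCNT and IVF overlapped below SCNT, with log2 differences of -1.52 ± 0.38 (adjusted p = 0.0102) and -1.49 ± 0.34 (adjusted p = 0.00242) from SCNT. The partner subunit FARSA was at 2.15 to 2.63 FPKM in KDM4E-SCNT, 0.78 to 2.00 in IVF and 1.66 to 4.09 in SCNT pools and was not called (log2 difference -0.23 and -0.69), but passed in IVF minus SCNT with median-ratio scaling (adjusted p = 0.0388) and quantile normalization (0.0368). FARSA is uncertain, since unannotated loci elsewhere on chromosome 7 carry the description of the same protein.

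GARS, the glycine enzyme, had 11.1 and 29.7 FPKM in KDM4E-SCNT pools, 19.8, 30.3 and 17.3 in IVF pools and 6.20, 9.96 and 4.30 in SCNT pools. SCNT was lowest without overlap, though KDM4E-SCNT replicate 1 exceeded the highest SCNT library by little. On the log2 scale the difference was 1.37 ± 0.46 (adjusted p = 0.0380) in KDM4E-SCNT minus SCNT and 1.61 ± 0.41 (adjusted p = 0.00488) in IVF minus SCNT. The KDM4E-SCNT call also ended without SCNT replicate 1 (0.0869) or 3 (0.128) and with median-ratio scaling (0.127) or quantile normalization (0.0932). WARS, the tryptophan enzyme, had 34.3 and 46.5 FPKM in KDM4E-SCNT, 70.8, 37.3 and 55.1 in IVF and 35.7, 22.5 and 33.4 in SCNT pools. Its IVF libraries were above the SCNT libraries by a narrow gap, the log2 difference was 0.79 ± 0.32 (adjusted p = 0.0490), and the call ended in 10 of 15 alternatives. These include the omission of IVF replicate 1 or 3 (0.168 and 0.117) and of SCNT replicate 1, 2 or 3 (0.0566, 0.164 and 0.0786), and median-ratio scaling (0.341). CARS, the cysteine enzyme, was at 4.36 to 6.85 FPKM in KDM4E-SCNT, 1.89 to 3.56 in IVF and 5.56 to 6.81 in SCNT pools. It was lower in IVF than SCNT, with a log2 difference of -1.05 ± 0.34 (adjusted p = 0.0179), a call that ended on leaving out SCNT replicate 1 (0.0622) or IVF replicate 1 or 3 (0.0551 and 0.0620).

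Asparagine, threonine, alanine and valine enzymes of the cytosol were not called in any comparison. NARS (asparagine) ranged over all libraries from 40.2 to 65.4 FPKM and TARS (threonine) from 11.9 to 27.0 FPKM, with overlapping groups. AARS (alanine) and VARS (valine) were low, at 0.66 to 3.00 and 0.58 to 3.93 FPKM. IVF libraries lay below SCNT for AARS (-0.83 ± 0.38, adjusted p = 0.0762) and above SCNT for VARS (0.92 ± 0.39, adjusted p = 0.0592). AARS passed in that comparison with median-ratio scaling (adjusted p = 0.0212) and with quantile normalization (0.0154), and VARS passed in 4 alternatives (0.0473 to 0.0487).

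The histidine enzymes HARS and HARS2 are neighbours on chromosome 7, at 53487090 to 53500190 and 53500352 to 53507322, with 161 bases between them, and both were highest in SCNT pools. HARS had 5.36 and 6.33 FPKM in KDM4E-SCNT pools, 3.51, 2.01 and 5.70 in IVF pools and 22.6, 15.3 and 17.8 in SCNT pools. HARS2 had 3.06 and 3.17 FPKM in KDM4E-SCNT, 1.04, 0.93 and 2.71 in IVF and 8.46, 13.1 and 17.1 in SCNT pools. For both genes all SCNT libraries were above all others. The log2 differences in KDM4E-SCNT minus SCNT were -1.50 ± 0.40 (adjusted p = 0.0137) for HARS and -1.70 ± 0.42 (adjusted p = 0.00979) for HARS2. In IVF minus SCNT they were -2.10 ± 0.36 (adjusted p = 0.000314) and -2.45 ± 0.38 (adjusted p = 0.000151). The KDM4E-SCNT call of HARS also ended without KDM4E-SCNT replicate 1 (0.0586) or SCNT replicate 1 (0.0529). The other neighbours among the members, EPRS and IARS2 on chromosome 16, are 49363 bases apart.

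In the mitochondrial set, IARS2 and RARS2 were higher and HARS2 and TARS2 lower in IVF than in SCNT pools, and 5 of 9 tested were not called. In KDM4E-SCNT against SCNT, HARS2 and WARS2 were lower and 7 were not called. These are 44.4% and 22.2% of the 9, beside 58.5% and 32.6% of all features. The median log2 difference of the 9 was -0.22 in IVF minus SCNT and -0.65 in KDM4E-SCNT minus SCNT, where all features had 0.39 and 0.33.

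RARS2, the mitochondrial arginine enzyme (chromosome 9, 63225447 to 63299357), had 44.5 and 106.6 FPKM in KDM4E-SCNT pools, 57.6, 94.1 and 97.9 in IVF pools and 34.9, 29.6 and 32.5 in SCNT pools. SCNT libraries were lowest and close together, and the KDM4E-SCNT libraries enclosed the IVF range. The log2 difference was 1.30 ± 0.35 (adjusted p = 0.00644) in IVF minus SCNT and 1.07 ± 0.39 (adjusted p = 0.0508) in KDM4E-SCNT minus SCNT. IARS2, which charges mitochondrial isoleucine tRNA, had 1.54 and 8.46 FPKM in KDM4E-SCNT, 3.80, 5.82 and 5.51 in IVF and 1.28, 0.72 and 0.69 in SCNT pools. KDM4E-SCNT replicate 1 was near the SCNT pools and replicate 2 above every IVF pool. The log2 difference of IARS2 was 1.67 ± 0.45 (adjusted p = 0.00688) in IVF minus SCNT and 1.38 ± 0.51 (adjusted p = 0.0516) in KDM4E-SCNT minus SCNT. Without KDM4E-SCNT replicate 1 both genes passed in KDM4E-SCNT minus SCNT, RARS2 at 1.69 (adjusted p = 0.0109) and IARS2 at 2.33 (adjusted p = 0.00540).

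TARS2, for threonine, had 2.57 and 4.74 FPKM in KDM4E-SCNT, 0.72, 0.55 and 1.62 in IVF and 5.82, 12.3 and 9.09 in SCNT pools. The 3 groups were ordered IVF, KDM4E-SCNT, SCNT without overlap. Its log2 difference was -2.34 ± 0.38 (adjusted p = 0.000235) in IVF minus SCNT and -1.10 ± 0.43 (adjusted p = 0.0653) in KDM4E-SCNT minus SCNT, and with median-ratio scaling the second one passed at -1.50 (adjusted p = 0.0162), as it did with quantile normalization (0.0186). WARS2 had 20.3 and 23.4 FPKM in KDM4E-SCNT, 43.2, 20.8 and 31.2 in IVF and 45.9, 42.5 and 50.2 in SCNT pools. Here KDM4E-SCNT was lowest and IVF overlapped both other groups. This gave a log2 difference of -1.05 ± 0.35 (adjusted p = 0.0349) in KDM4E-SCNT minus SCNT and -0.58 ± 0.31 (adjusted p = 0.120) in IVF minus SCNT, which passed with median-ratio scaling (0.0122) and without IVF replicate 1 (0.0431). The call of WARS2 also ended without KDM4E-SCNT replicate 1 (0.116), IVF replicate 3 (0.0520) or SCNT replicate 1, 2 or 3 (0.0778, 0.0522 and 0.0995).

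FARS2, the single-chain mitochondrial phenylalanine enzyme, had 4.64 and 2.68 FPKM in KDM4E-SCNT, 7.78, 2.87 and 2.76 in IVF and 8.09, 5.24 and 5.49 in SCNT pools. KDM4E-SCNT lay below SCNT but the difference was not called (-0.65 ± 0.45, adjusted p = 0.275). NARS2, for asparagine, had 0.40 and 0.25 FPKM in KDM4E-SCNT, 1.73, 3.41 and 2.42 in IVF and 3.40, 0.45 and 1.17 in SCNT pools. KDM4E-SCNT was below both other groups without overlap, with differences of -0.86 ± 0.48 (adjusted p = 0.184) from SCNT and -1.38 ± 0.48 (adjusted p = 0.121) from IVF. CARS2 and YARS2 overlapped between groups in all comparisons and ranged over all libraries from 0.57 to 4.34 and from 2.13 to 4.51 FPKM.

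The ratio of the cytosolic to the mitochondrial enzyme for the same amino acid differed between groups in several pairs, of which some are given here. The arginine pair averaged 117.8 ± 38.7 (RARS) and 75.5 ± 43.9 FPKM (RARS2) in KDM4E-SCNT, 121.3 ± 41.1 and 83.2 ± 22.3 in IVF, and 103.6 ± 24.1 and 32.4 ± 2.7 in SCNT pools (SD, n = 2, 3 and 3). Thus RARS was 1.56 times RARS2 in KDM4E-SCNT, 1.46 times in IVF and 3.204 times in SCNT pools. The KDM4E-SCNT libraries differ on RARS2 (44.5 and 106.6 FPKM), so their ratio is uncertain. In the tryptophan pair WARS was 1.85 times WARS2 in KDM4E-SCNT, 1.71 times in IVF and 0.660 times in SCNT pools. In the isoleucine pair IARS was 2.10 times IARS2 in IVF and 17.6 times in SCNT pools, and no ratio is given for KDM4E-SCNT, whose libraries disagree on IARS2 (1.54 and 8.46 FPKM). The SCNT ratio is uncertain, since IARS2 was at 0.69 to 1.28 FPKM there. The threonine pair went the other way, with TARS 21.0 times TARS2 in IVF and 1.99 times in SCNT pools. Its IVF ratio is uncertain too, with TARS2 at 0.55 to 1.62 FPKM. These ratios were not tested.

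Summed over the 20 cytosolic genes the level was 437.5 and 572.9 FPKM in KDM4E-SCNT, 437.0, 514.8 and 492.6 in IVF and 744.3, 554.7 and 672.3 in SCNT pools. The IVF libraries lay below the SCNT libraries and KDM4E-SCNT replicate 2 fell within the SCNT range. Over the 16 mitochondrial genes the sum was 81.1 and 159.9 FPKM in KDM4E-SCNT, 125.5, 136.0 and 150.3 in IVF and 115.0, 115.5 and 123.1 in SCNT pools. The cytosolic to mitochondrial ratio averaged 4.49 ± 1.28 in KDM4E-SCNT (n = 2), 3.52 ± 0.26 in IVF (n = 3) and 5.58 ± 0.84 in SCNT pools (SD, n = 3), with IVF below SCNT in every library. KARS and GARS, which serve both compartments, were counted wholly as cytosolic. KARS averaged 43.6 FPKM in IVF and 108.9 in SCNT pools, and GARS 22.5 and 6.82. The mitochondrial sum rests largely on RARS2 and WARS2, and with median-ratio scaling its mean was 118.2 FPKM in IVF and 138.2 in SCNT pools, the reverse of the order as deposited.

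**Figure D4:**
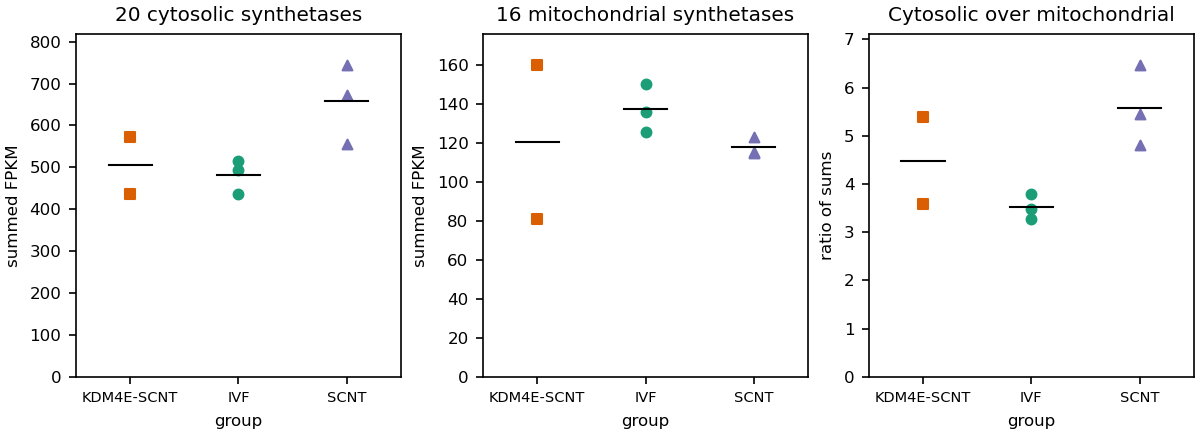
Summed FPKM of the 20 cytosolic and the 16 mitochondrial synthetases and the ratio of these sums, with 1 point per library and a line at the group mean for KDM4E-SCNT, IVF and SCNT. The ratio is 3.28 to 3.79 in IVF and 4.80 to 6.47 in SCNT libraries, and the KDM4E-SCNT libraries, 5.39 and 3.58, are far apart.

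The KDM4E-SCNT libraries differed from each other in many of the members. Levels were higher in replicate 2 for 20 of 29 members, by over 2-fold for 6 of them, AARS, GARS, VARS, CARS2, IARS2 and RARS2, of which IARS2 had the largest ratio (5.49). YARS showed the opposite, at 0.395 times its replicate 1 level. As whole libraries, replicates 1 and 2 held 12453 and 13050 features at 1 FPKM or more. Their median-ratio scaling factors were 1.12 and 1.25. Whether the members differ from all features in this was not tested.

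Synthetases fall into a pair of unrelated structural classes. Of 15 class I members tested, 4 were higher, 4 lower and 7 not called in IVF minus SCNT, with a median log2 difference of -0.13. Of 14 class II members 2 were higher, 6 lower and 6 not called, with a median of -0.76. The called shares, 53.3% and 57.1%, were near the 58.5% of all features, of which 34.9% were higher and 23.6% lower with a median of 0.39. In KDM4E-SCNT minus SCNT the counts were 1 higher, 2 lower and 12 not called in class I, and 1 higher, 5 lower and 8 not called in class II, or 20% and 42.9% called beside 32.6% of all features. A difference between the classes was not tested.

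Related genes of tRNA charging were read from lists. Among the synthetase partners and editing factors reported here, SEPSECS and DTD2 were higher in IVF than SCNT and none was lower. SEPSECS alone was called in KDM4E-SCNT minus SCNT. All features had 34.9% higher and 23.6% lower in the first comparison, and 21.6% and 11% in the second. With median-ratio scaling AARSD1 was called lower in both comparisons. SEPSECS, which completes selenocysteine on the tRNA that SARS charges, had 73.3 and 82.2 FPKM in KDM4E-SCNT, 125.3, 94.3 and 73.1 in IVF and 20, 25.4 and 21.0 in SCNT pools. SCNT was lowest without overlap, opposite in direction to SARS, with log2 differences of 1.77 ± 0.32 (adjusted p = 0.00213) in KDM4E-SCNT and 2.06 ± 0.29 (adjusted p = 6.83e-05) in IVF. The call of DTD2, a proofreading enzyme that clears mischarged tRNA (1.51 ± 0.48, adjusted p = 0.0166), ended without IVF replicate 1 or 3 (0.0548 and 0.0675), SCNT replicate 2 (0.0682) and with median-ratio scaling (0.0523).

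Genes listed under mitochondrial tRNA processing and charging were also counted. The list is broader than its name, since it holds a peptidyl-tRNA hydrolase (PTRH2), and its counts are not all about mitochondrial tRNAs. Of 15 tested, 9 were lower, 1 (GATB) higher and 5 not called in IVF minus SCNT, with a median log2 difference of -1.25. Over all features 23.6% were lower and 34.9% higher, with a median of 0.39. The lower calls of TRMU, MTO1 and GTPBP3 ended in several alternatives (limma, adjusted p up to 0.220, 0.159 and 0.0721). In KDM4E-SCNT minus SCNT 6 were lower, GATB was higher and 8 were not called, with a median of -0.69, while over all features 11% were lower and 21.6% higher, with a median of 0.33. PTRH2, a peptidyl-tRNA hydrolase, had 173.6 and 119.6 FPKM in KDM4E-SCNT, 16.4, 13.4 and 19.7 in IVF and 243.0, 242.6 and 350.3 in SCNT pools. TRMT10C, the methyltransferase subunit of mitochondrial RNase P, had 78.7 and 55.0 FPKM in KDM4E-SCNT, 16.1, 17.2 and 12.1 in IVF and 155.8, 176.9 and 187.8 in SCNT pools. For both the groups did not overlap and KDM4E-SCNT was in the middle. In IVF minus SCNT the log2 difference was -3.99 ± 0.29 (adjusted p = 8.03e-07) for PTRH2 and -3.44 ± 0.28 (adjusted p = 1.81e-06) for TRMT10C. In KDM4E-SCNT minus IVF it was 3.07 ± 0.32 (adjusted p = 0.000184) and 2.06 ± 0.31 (adjusted p = 0.00164). TRMT5 and HSD17B10, a tRNA methyltransferase and another RNase P subunit, were lower in KDM4E-SCNT than SCNT, with log2 differences of -2.01 ± 0.34 (adjusted p = 0.00166) and -1.66 ± 0.34 (adjusted p = 0.00415), and lower in IVF than SCNT, with -3.07 ± 0.30 and -2.76 ± 0.31 (adjusted p = 6.18e-06 and 1.44e-05). QRSL1 and GATB belong to the complex that completes mitochondrial glutamine tRNA and moved apart in IVF minus SCNT, QRSL1 with a log2 difference of -2.13 ± 0.37 (adjusted p = 0.000371) and GATB with 1.69 ± 0.41 (adjusted p = 0.00364). In KDM4E-SCNT minus SCNT QRSL1 was lower (-1.89 ± 0.42, adjusted p = 0.00562), and the TRMT10C call (-1.38 ± 0.31, adjusted p = 0.00616) ended without KDM4E-SCNT replicate 2 (0.0693). The GATB call there (1.64 ± 0.46, adjusted p = 0.0174) ended without KDM4E-SCNT replicate 2 (0.185), without SCNT replicate 3 (0.0681) and with quantile normalization (0.0541). Those of PTRH2 (-0.92 ± 0.32, adjusted p = 0.0427) and GATC, another subunit of the QRSL1 complex (-1.32 ± 0.44, adjusted p = 0.0380), ended in 8 and 6 of 15 alternatives, and without KDM4E-SCNT replicate 2 stood at 0.267 and 0.238.

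In other tissues ATF4, a transcription factor of the amino acid response, is known to drive many cytosolic synthetase genes. Of 20 genes of that response tested, 9 were higher, 7 lower and 4 not called in IVF minus SCNT (median log2 difference 0.32), and 5 were higher, 3 lower and 12 not called in KDM4E-SCNT minus SCNT (median 0.18). The IVF minus SCNT counts include TRIB3 (lower) and VLDLR (higher). These passed the filter only through the group where they were high, TRIB3 through SCNT and VLDLR through IVF pools, so their calls add no support. All features had 34.9% higher and 23.6% lower with a median of 0.39 in IVF minus SCNT, and 21.6% higher and 11% lower with 0.33 in KDM4E-SCNT minus SCNT. With median-ratio scaling the balance of the list turned round. It had 6 higher and 8 lower in IVF minus SCNT (all features 28% and 29.2%). In KDM4E-SCNT minus SCNT it had 4 higher and 5 lower (all features 14.2% and 18.6%). Among others, the IVF calls of SESN2, MTHFD2 and VLDLR and the KDM4E-SCNT call of PPP1R15A ended in several alternatives. ATF4 itself had 88.6 and 73.2 FPKM in KDM4E-SCNT, 57.1, 43.1 and 55.0 in IVF and 122.0, 83.3 and 108.4 in SCNT pools. Its IVF libraries were lowest without overlap (-0.995 ± 0.27, adjusted p = 0.00731), and KDM4E-SCNT overlapped SCNT (-0.36 ± 0.30, adjusted p = 0.384). PSPH, the last enzyme of serine synthesis, was higher than in SCNT by 1.46 ± 0.30 in KDM4E-SCNT (adjusted p = 0.00383) and by 2.43 ± 0.27 in IVF pools (adjusted p = 1.28e-05). CHAC1, which degrades glutathione, was higher in IVF by 2.73 ± 0.41 (adjusted p = 0.000125) and in KDM4E-SCNT by 2.17 ± 0.46 (adjusted p = 0.00460), a call that ended without KDM4E-SCNT replicate 2 (0.0616). EIF2AK1, a kinase of EIF2S1, and EIF2S1 itself were lower in IVF than SCNT, with log2 differences of -2.69 ± 0.33 (adjusted p = 2.89e-05) and -2.24 ± 0.32 (adjusted p = 7.91e-05). The feature of EIF2AK1 adjoins that of AIMP2 on chromosome 25, where AIMP2 ends at 38584314 and EIF2AK1 begins at 38584315. Whether reads of this pair can be told apart was not tested. PSAT1 of serine synthesis was higher in KDM4E-SCNT than SCNT (1.89 ± 0.40, adjusted p = 0.00443), and CEBPG, a bZIP partner of ATF4, was lower (-1.48 ± 0.33, adjusted p = 0.00597), a call that ended without KDM4E-SCNT replicate 2 (0.0740).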

How the data were processed

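RNA was sequenced from 8 pools of embryos. SuperScript III cDNA was poly(A)-tailed, amplified with Ex Taq, sheared and built into libraries with a NEBNext Ultra DNA kit, per the labels' protocols. Per the submitters' processing notes, the build was UMD3.1 and the tools were RSEM 1.2.12, Bowtie2 2.2.5, StringTie 1.0.4, HISAT 0.1.6 and bcl2fastq 2.16, their roles not stated. The deposited files, 1 per library, hold FPKM to 2 decimals, per the file headers. No counts were used, so depth per library is unknown and no counting interval is given, and amplification before library making can add spread that FPKM does not show.

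A feature entered the tests where 2 or more libraries had 1 FPKM or more (14839 did, 6419 did not). Values were tested as log2(FPKM + 1) with group means for all 8 libraries in 1 linear model (limma-trend with robust moderation, limma 3.58.1, R 4.3.3). P-values were two-sided and adjusted by the Benjamini-Hochberg method over all kept features of a comparison, and features were called at an adjusted p under 0.05. The error after each log2 difference is its standard error. Group sums and ratios carry no test. Positions are those of the files.

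All members are accounted for. Library values are given for the 3 highest members of each compartment, the 6 with the smallest p per compartment and comparison with SCNT, members called in the direction that fewer of their compartment took, and those called between KDM4E-SCNT and IVF. Up to 4 genes with the smallest p are named per other list. The members and lists were chosen with earlier results of these data known. Alternatives were a pseudocount of 0.1, no filter, a filter at 5 FPKM, median-ratio scaling, quantile normalization, only the groups compared, a replicate block, and leaving out each library in turn. A group left with 1 library was assumed to vary like the others. A gene on the list of synthetase partners is not reported here.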

Additional observations from a re-analysis of the deposited data

How the results depend on the processing

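In IVF minus SCNT, 11 of the 16 calls held in all 15 alternatives (FARSB, GARS, HARS, HARS2, IARS2, KARS, QARS, RARS2, SARS, TARS2 and YARS), and no call of a member changed sign in any comparison. Median-ratio scaling lowered the median log2 difference of all features to 0.10 in IVF minus SCNT and 0.02 in KDM4E-SCNT minus SCNT, against 0.39 and 0.33 as deposited. It split all calls into 4150 higher and 4331 lower in IVF minus SCNT and 2104 and 2764 in KDM4E-SCNT minus SCNT, where the deposited values gave 5182 and 3498, and 3208 and 1636. Relative to that shift the members were called 3 higher and 14 lower in IVF minus SCNT and 1 higher and 10 lower in KDM4E-SCNT minus SCNT. It put summed cytosolic FPKM at 415.4 in IVF and 770.9 in SCNT pools, against 481.5 and 657.1, and mitochondrial FPKM at 118.2 and 138.2, against 137.3 and 117.9, so the order of the mitochondrial sums turned round.

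Cytosolic calls higher in IVF minus SCNT numbered 4, but 1 with median-ratio scaling, 2 with quantile normalization and 2 to 5 without 1 library. In KDM4E-SCNT minus SCNT, 2 cytosolic genes were called higher, but 1 with no filter, median-ratio scaling, quantile normalization or only the groups compared, and 0 to 2 without 1 library. The 5 cytosolic calls lower became 1 to 6 without 1 library. No mitochondrial gene was called higher there (0), but 2 were with the stricter filter, 1 with the replicate block and 0 to 2 without 1 library. The 2 mitochondrial calls lower became 1 with no filter or with the block and 0 to 2 without 1 library. In KDM4E-SCNT minus IVF, the 2 cytosolic calls became 1 with a pseudocount of 0.1, no filter or only the groups compared, and 0 to 2 without 1 library. Unfiltered, with all 36 genes tested, 5 were higher and 10 lower in IVF minus SCNT and 1 higher and 5 lower in KDM4E-SCNT minus SCNT. The causes of these shifts were not tested.

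Same-numbered libraries of IVF and SCNT deviated together by correlations of 0.0602, 0.0934 and 0.0277. KDM4E-SCNT libraries 1 and 2 gave 0.0324 and 0.0678 with IVF and 0.00649 and 0.123 with SCNT. Pairing was taken to need over 0.1 in every pair, so no pairing was used. With the replicate block the adjusted p was 0.0793 for QARS and 0.0591 for WARS2 in KDM4E-SCNT minus SCNT, 0.0508 for WARS in IVF minus SCNT, and 0.0437 for RARS2 in KDM4E-SCNT minus SCNT. With 2 KDM4E-SCNT libraries and FPKM to 2 decimals, genes near 1 FPKM are measured coarsely.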

Other observations

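Features near the synthetases by description, singled out after their values were seen, gave further values. A pair of unannotated loci on chromosome 7 that the files describe as the phenylalanine enzyme's alpha subunit, the protein that FARSA encodes, were higher in IVF than in SCNT pools. The locus at 88147825 to 88151734 had 47.1 and 51.1 FPKM in KDM4E-SCNT pools, 72.4, 39.9 and 68.9 in IVF pools and 9.14, 22.8 and 15.6 in SCNT pools, all above FARSA in every library. Its libraries from SCNT were lowest without overlap, with log2 differences of 1.66 ± 0.40 (limma, adjusted p = 0.00869) in KDM4E-SCNT and 1.91 ± 0.36 (adjusted p = 0.000643) in IVF; the KDM4E-SCNT call ended without its replicate 2 (0.0693). The locus at 88147168 to 88150873 had 7.12 and 17.4 FPKM in KDM4E-SCNT, 38.1, 15.9 and 21.5 in IVF and 2.86, 7.31 and 4.83 in SCNT pools, and was called in IVF minus SCNT (2.10 ± 0.43, adjusted p = 0.00119). The other 2 loci with that description were not called. Both called loci overlap each other and may share reads with FARSA, so their values are uncertain.

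PRORSD1, which carries a domain found in prolyl-tRNA synthetases, had 36.9 and 15.1 FPKM in KDM4E-SCNT pools, 3.21, 6.68 and 2.52 in IVF pools and 74.3, 53.8 and 102.4 in SCNT pools. The 3 groups did not overlap, in the order IVF, KDM4E-SCNT, SCNT. The log2 difference was -3.96 ± 0.41 (limma, adjusted p = 8.97e-06) in IVF minus SCNT, -1.61 ± 0.46 (adjusted p = 0.0189) in KDM4E-SCNT minus SCNT and 2.35 ± 0.46 (adjusted p = 0.00762) in KDM4E-SCNT minus IVF. Against SCNT the KDM4E-SCNT call of PRORSD1 ended without KDM4E-SCNT replicate 2 (0.225) or SCNT replicate 3 (0.0748), and against IVF without KDM4E-SCNT replicate 1 (0.153).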
